A study of Mus musculus with 2 samples.

Results

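RNA helicases of the DEAD and DEAH box families were followed in activated mouse CD4 T cells. Members were all genes whose symbol is Ddx or Dhx plus digits and an optional letter, leaving out the Y-linked Ddx3y, on probe sets paired with 1 gene symbol. This gave 48 genes, 32 Ddx and 16 Dhx, on 85 probe sets, of 17097 genes on the array. The cells were naive Foxp3-negative CD4 T cells from 6-week-old C57/Bl6 mice carrying a Foxp3-eGFP reporter. They were cultured for 48 hours with an anti-CD3 antibody in solution and with spleen antigen-presenting cells (APC) depleted of T cells and treated with mitomycin C. The APC were wild type (Wt) in one group and carried a transgene for the costimulatory ligand OX40L (OX40L-Tg) in the other. The labels do not name the promoter of that transgene, nor how many mice or wells gave the RNA. Each group has 1 array, so no difference could be tested and nothing measures the spread between cultures.

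DEAD and DEAH box proteins use ATP to unwind short RNA duplexes or to strip proteins from RNA. They are named after the amino acids of a conserved helicase motif. Together they drive splicing, mRNA export, translation, RNA decay and the assembly of ribosomes, and a few detect viral RNA. An activated T cell enlarges and divides, and its output of ribosomes and mRNA grows with it.

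Values are probe set intensities, and a gene took the probe set with the highest mean. A difference is the log2 value with OX40L-Tg APC less that with Wt APC, and paired values give Wt APC first. The floor was each array's median intensity, 14.7 units on both. A second level, called background here, was the 95th percentile of 45 genes known from other organs, which came to 57.4 units (Wt APC) and 49.0 units (OX40L-Tg APC). Of the 48 helicases, 46 reached the floor and 43 the background level on at least 1 array. Intensities of different probe sets are not comparable as amounts of RNA, so no helicase is called more expressed than another. Quartiles of level and sums over probe sets, where given, describe brightness of signal only.

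The helicases as a family read almost the same with both kinds of APC. With OX40L-Tg APC, 0 of the 46 above the floor were higher by 1.5-fold or more, where 3.85% of all 10541 genes above the floor were. In the other direction 1 helicase, the germline gene Ddx43, was at least 1.5-fold lower, where 3.36% of all genes were. None of the 43 helicases above background reached 1.5-fold in either direction, whereas 7.28% of the 7812 genes above background did. With 43 to 46 members, the background shares correspond to few genes, and the counts are given as a description.

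Differences were small and leaned upward. The median over the 46 helicases was 0.06, beside 0.02 over all genes above the floor. The interquartile range of the helicases lay between -0.02 and 0.11, a width of 0.13, and that of all genes between -0.12 and 0.16, a width of 0.28. Differences under 0.1 in size were found for 26 of 46 helicases (56.5%) and for 38.9% of all genes. The OX40L-Tg APC value was the higher one in 32 of the 46 helicases (69.6%), where 54.0% of all genes did. Ddx and Dhx genes had similar medians, 0.07 over 30 Ddx genes and 0.06 over 16 Dhx genes.

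**Figure D1:**
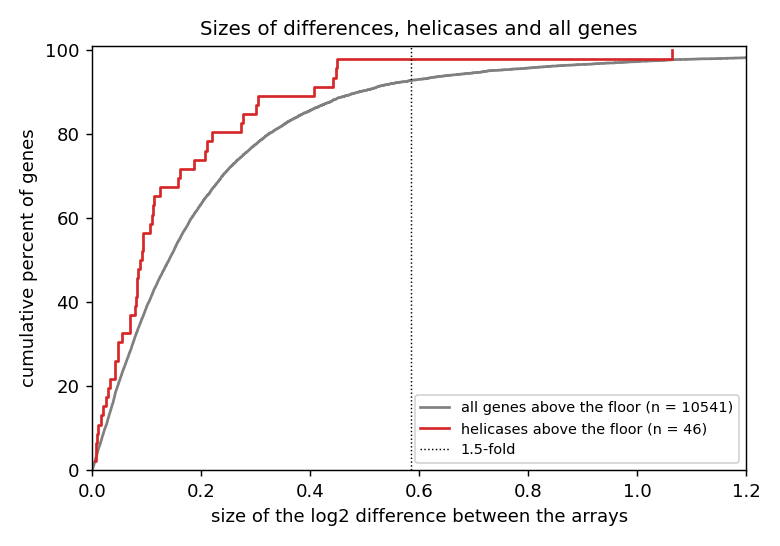
Cumulative percent of genes (vertical axis) against the size of the log2 difference between the 2 arrays (horizontal axis), for the 46 helicases and the 10541 genes above the floor. The helicase line runs above that of all genes from 0.1 up to 1.5-fold (dotted line), and its last step is Ddx43.

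Signal level moved with this narrow spread, and its part in it was not tested. Bright probe sets scattered less, and 19 of the 46 helicases (41.3%) stood in the highest quartile of genes by mean level. In that quartile the interquartile width was 0.18 for all genes and 0.12 for helicases. In the second lowest quartile it was 0.35 for all genes and 0.13 for 12 helicases. The plot of both arrays shows the family along the line of equal values.

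**Figure D2:**
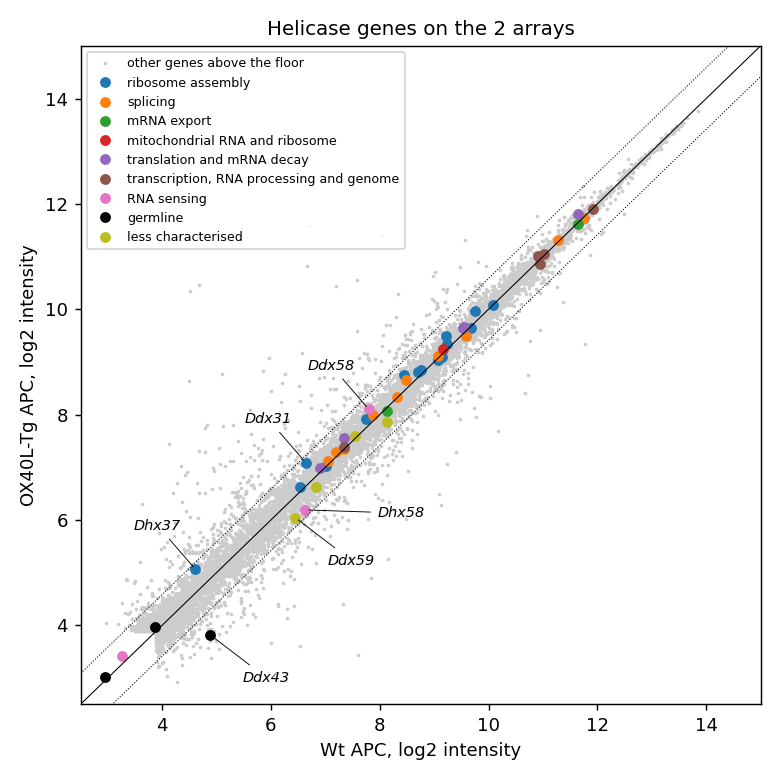
Log2 intensity with OX40L-Tg APC (vertical) against Wt APC (horizontal), 1 array each, for helicase genes coloured by role and all genes above the floor in grey; the solid line marks equal values and the dotted lines 1.5-fold. Ddx43 is the only helicase outside the dotted lines, and it lies near the lower end of the scale.

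Helicases of ribosome assembly included the 3 highest differences of the family, those of Dhx37, Ddx31 and Ddx56. These largely nucleolar proteins free small nucleolar RNAs and reshape precursor ribosomal RNA while both subunits are built. Of 15 genes, 12 read higher with OX40L-Tg APC (80%) and 3 lower, with a median of 0.09 and none past 1.5-fold. The share higher was 54.0% over all genes above the floor, 69.6% in the whole family and also 80% among the splicing helicases. Ddx56 (0.304) stood barely above Ddx58 (0.301), which belongs to another role. Ddx31, needed for the large subunit, read 99.7 and 136 units, a difference of 0.45. Dhx37, which releases the U3 small nucleolar RNA from the small subunit precursor, read 24.4 and 33.4 units, also a difference of 0.45. Both of its values were below background, so only the value of Ddx31 stands on measurable signal.

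Ddx56, a nucleolar factor of the large subunit, read 348 and 429.9 units, a difference of 0.30. Ddx27, which acts in 3′ end formation of 47S ribosomal RNA, read 597 and 723 units, a difference of 0.28. The other probe set of Ddx27 was below background and differed by -0.07. Ddx21, which couples RNA polymerase I transcription to rRNA processing, read 857 and 998 units in 1 probe set and 853 and 896 units in the other. Its differences were 0.22 and 0.07, so the 2 sets agree in sign but not in size. Ddx50, the close relative of Ddx21, read 535 and 523 units, a difference of -0.03.

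The remaining 9 genes of ribosome assembly lay between -0.05 and 0.16. Dhx33, which promotes rRNA synthesis, read 215 and 240.2 units, and both of its probe sets were higher, by 0.16 and 0.09. Ddx24 (0.11), Ddx10 (0.09), Ddx55 (0.09), Ddx54 (0.08), Ddx51 (0.02) and Ddx18 (0.01) followed in the order of their differences. Of these 6, Ddx10 serves the small subunit and the others chiefly the large one. Ddx18 had a difference of 0.15 in its second probe set above background. Ddx47 and Ddx52, both small subunit factors, differed by -0.02 and -0.05.

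**Figure D3:**
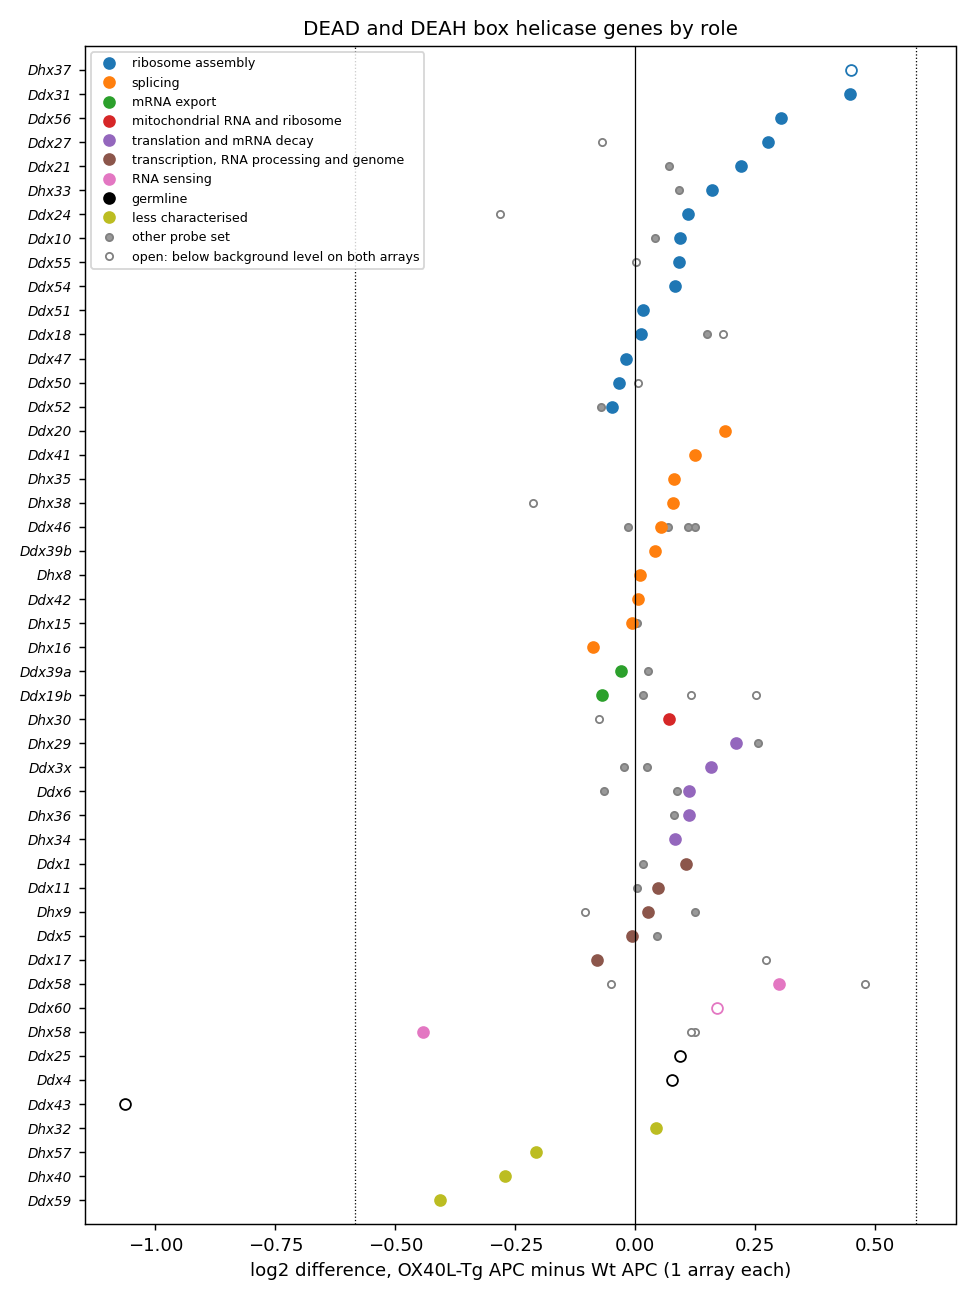
Log2 difference, OX40L-Tg APC minus Wt APC (horizontal), for each of the 48 helicase genes (rows), coloured by role; large points are the probe set used, small grey points other probe sets of the gene, open points sets below background on both arrays, and dotted lines 1.5-fold. Among the large points, ribosome assembly genes extend furthest to the right, up to 0.45, and Ddx43, Dhx58 and Ddx59 furthest to the left.

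Spliceosomal helicases were the tightest large group. With the probe sets used, all 10 lay within 0.2 of equal values, 8 higher and 2 lower, with a median of 0.05. Ddx20, also called Gemin3, helps the SMN complex assemble the small nuclear ribonucleoproteins, and it read 356 and 406 units, a difference of 0.19. Ddx41, found in the catalytic spliceosome and also described as a sensor of cytosolic DNA, read 235 and 256 units, a difference of 0.12. Dhx16, which primes the spliceosome for its first catalytic step, read 767 and 722 units, a difference of -0.09. These values place the first 2 above and the last below equality by less than the 1.5-fold used here.

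The ATPases that order the later steps of splicing differed by less still in the probe sets used. Dhx38, which remodels the spliceosome between the catalytic steps, and Dhx35 each differed by 0.08. The set used for Dhx38 is marked as shared, and its other set, below background, differed by -0.21. Dhx8, which releases the spliced mRNA, differed by 0.01. Dhx15, which takes the spent spliceosome apart, read 3438 and 3423 units, a difference of -0.01, and its second probe set differed by less than 0.1 as well. Ddx46, an ATPase of branch site recognition, had 5 probe sets above background, with differences from -0.02 to 0.12. Ddx42, which acts at the same early stage, differed by 0.01. Ddx39b, or UAP56, links splicing to export and read 2476 and 2549.7 units, a difference of 0.04.

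The export helicases stood close to equality. Ddx39a, the paralog of Ddx39b, read 3205 and 3141 units, a difference of -0.03, and its other probe set differed by 0.03. Ddx19b, which remodels mRNA at the nuclear pore, read 282 and 269 units, a difference of -0.07, and its second set above background differed by 0.02. The sign for these 2 genes thus depends on the probe set, and the set used for Ddx19b is marked as shared between transcripts.

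In the probe sets used, all 5 helicases of translation and mRNA decay read higher, with a median of 0.11. Of all genes above the floor 54.0% read higher, and a count over 5 genes is a description only. Dhx29, which helps ribosomes scan structured 5′ leaders, read 162 and 187 units, a difference of 0.21, and its second set, near background, differed by 0.26. Ddx3x, a cofactor of translation initiation with a relative on the Y chromosome, read 3208 and 3580.2 units, a difference of 0.16. Its other probe sets differed by -0.02 and 0.02, and the set used is marked as shared. Dhx36, which resolves RNA quadruplexes, and Ddx6, which acts with the decapping and deadenylation machinery, both differed by 0.11. The other sets of Ddx6 above background differed by 0.09 and -0.07. Dhx34, of nonsense-mediated decay, differed by 0.08.

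Helicases of transcription and general RNA processing stood close to equality, with a median of 0.03 over 5 genes. Ddx1, a subunit of the tRNA ligase complex, read 1923 and 2069.5 units, a difference of 0.11, and its second set differed by 0.02. Ddx17 and Ddx5 are paralogs that act as transcriptional coactivators and in microRNA processing. Ddx17 read 1973 and 1867 units, a difference of -0.08 in a set marked as prone to cross-hybridise. Ddx5 read 3870.2 and 3852 units, a difference of -0.01. Dhx9, or RNA helicase A, differed by 0.03, and by 0.12 in its second set above background. Ddx11, a DNA helicase of sister chromatid cohesion, differed by 0.05. Dhx30, which serves mitochondrial ribosome assembly, read 575 and 604 units, a difference of 0.07.

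The RNA sensors differed in opposite directions. RIG-I, encoded by Ddx58, detects viral RNA with a 5′ triphosphate and signals through MAVS to induce type I interferon, and LGP2, encoded by Dhx58, tunes that response without signalling itself. Ddx58 read 223 and 274 units, a difference of 0.30. Dhx58 read 99.2 and 73.0 units, a difference of -0.44, the lowest value of any helicase above background. Ddx60, described as a cofactor of RIG-I, read 9.54 and 10.7 units, below the floor on both arrays. For Ddx58 and Dhx58 alike, the 2 other probe sets were below background on both arrays, so each of these differences rests on 1 probe set.

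All 3 sensor genes are known interferon targets, so their promoters were searched for the interferon-stimulated response element, written GAAANNGAAA, on both strands. The RefSeq promoter table (GRCm38.p6) holds 43 of the 48 helicases, each from 250 bases before to 50 after a start site. Dhx58 is not among them and is named only. Of the 43, Ddx58 and Ddx60 (4.65%) hold the element, where 3.99% of all 27025 genes in the table do. The matches are shown because these 2 sensors are the only helicases with one. Each is read in the direction of the motif, with its letters in capitals.
Ddx58 (chr4:40239804-40239833, plus strand, opposite to the gene): ctggccatagGAAATCGAAActgcctcagg
Ddx60, first (chr8:61928024-61928053, plus strand): gtgatgaatgGAAACCGAAActtaaagctt
Ddx60, second (chr8:61928058-61928087, plus strand): gagcagaagaGAAACCGAAActatccttca
In Ddx60 the matches begin 53 and 19 bases before the start site, and in Ddx58 the match begins at base 3 of the transcript. A match describes letters and shows no binding.

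Genes around the sensors stood close to equality as a list. Of 13 genes of the RIG-I-like receptor pathway above the floor, 6 read higher and 7 lower, with a median of -0.03. Ikbke, a kinase that phosphorylates interferon regulatory factors, was the 1 gene past 1.5-fold, at 361 and 216 units, a difference of -0.75. Ifih1, which encodes the sister sensor MDA5, read 73.5 and 71.9 units, and Mavs, the shared adaptor, 73.2 and 71.2 units. In the list of 13 type I interferon targets, 2 were higher and 3 lower by 1.5-fold or more, with a median of -0.13, where 7.21% of all genes above the floor passed 1.5-fold in either direction. Only 4 of the 13 were above background, and Cmpk2, Ifit1 and Oasl2, among those past 1.5-fold, were not. Usp18, a brake on interferon receptor signalling, differed by 0.59 and Ifit2, an antiviral RNA-binding protein, by -1.29. Irf9 (-0.30) and Stat2 (-0.13) made up the rest above background, so Usp18 was the only higher one of the 4. Whether the opposite differences of Ddx58 and Dhx58 relate to these targets was not tested.

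Helicases known from germ cells were at or near the floor. Ddx43, known as a cancer-testis antigen, read 29.5 and 14.1 units, a difference of -1.06. Both values are below background and it has 1 probe set, so this difference, the only one of the family past 1.5-fold, is between 2 levels where no presence of the transcript is shown. Ddx25, of late spermatogenesis, read 14.6 and 15.6 units. Ddx4, or Vasa, which defines germ cells, read 7.71 and 8.13 units, below the floor.

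Of 4 less characterised helicases, 3 read lower, with a median of -0.24 and none past 1.5-fold. Ddx59, linked to ciliary signalling, read 87.3 and 65.9 units, a difference of -0.41. Dhx40 read 279.9 and 232 units, a difference of -0.27, and Dhx57 114 and 98.5 units, a difference of -0.21. The set of Dhx57 is marked as shared between transcripts. Dhx32, by contrast, read 187 and 192 units, a difference of 0.04. Each of the 4 genes has 1 probe set.

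Agreement between probe sets of the same gene gives the only measure of error in these data, and it covers the probes but not the cultures. In 17 helicases with at least 2 sets above background, 39 sets in all, the pooled within-gene SD of the difference was 0.06. Over 2814 genes of the array it was 0.13. In 7 of the 17 helicases the sets fell on both sides of 0. The largest gap between sets of one gene was 0.18 among these helicases and 2.40 among all those genes. The largest differences above background, those of Ddx31, Ddx56, Ddx58, Dhx58 and Ddx59, exceed the largest helicase gap but not that over all genes. None of those 5 genes has a second set above background, so the helicase gap was drawn from other genes and does not measure their error.

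Promoters of the family were also compared for 8 other short motifs. The ETS motif CCGGAAGT was found in 10 of the 43 helicases (23.3%) and in 4.31% of all genes. It is shown because it is the most frequent of the 9 motifs among the helicases. Only Ddx43 in the family was past 1.5-fold, so the motif could not be set against that threshold. Helicase promoters were richer in G and C, at a median of 60.7% against 52.7% for all promoters, and held 24 CG pairs against 7. The motif itself contains such a pair, and whether base composition accounts for its frequency was not tested.
Ddx17 (chr15:79546953-79546980, minus strand): gcccagagacCCGGAAGTctgactaagg
Ddx27 (chr2:167015301-167015328, plus strand): ctcgctacgtCCGGAAGTggctgcttct
Ddx39b (chr17:35241776-35241795, plus strand): gagcctggaaCCGGAAGTga
Ddx47 (chr6:135011610-135011637, minus strand, opposite to the gene): ctcgtgggctCCGGAAGTggggccgagg
Ddx50 (chr10:62651214-62651241, minus strand): ggtgcgtggcCCGGAAGTgacgcacggt
Dhx8 (chr11:101732965-101732992, plus strand): gagcgccgacCCGGAAGTggaagctgtg
Dhx9 (chr1:153487739-153487766, minus strand): ggtttggcgcCCGGAAGTggttcaagcc
Dhx30 (chr9:110117663-110117690, minus strand): ggccgctccgCCGGAAGTcccgcctgtg
Dhx34 (chr7:16222012-16222039, minus strand): ccatttaggaCCGGAAGTtgaggcgtcc
Dhx37 (chr5:125434095-125434122, minus strand): catgcgcaacCCGGAAGTctcctagcca
Matches begin within 100 bases of the start site in 9 of the 10 genes, and 229 bases before it in Ddx17. The Myc E-box CACGTG was in 7 helicases (16.3%; 8.09% of all genes), namely Ddx4, Ddx5, Ddx25, Ddx42, Dhx33, Dhx35 and Dhx40. Among ribosome assembly genes, Dhx33 (a difference of 0.16) held it, while Ddx31, Dhx37, Ddx56, Ddx27 and Ddx21 had none in this window. Whether the motif bears on these differences was not tested. The NF-kB motifs GGACTTTCC and GGAATTTCC were in 0 helicases each, and in 0.40% and 0.38% of all genes. The cyclic AMP response element TGACGTCA was in 2 helicases (4.65%; 2.03%), the NRF1 motif GCGCATGCGC in 2 (4.65%; 1.07%), the YY1 motif AAGATGGC in 1 (2.33%; 3.19%) and the TATA box TATAAA in 6 (14.0%; 15.7%).

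Related helicases and partner proteins were compared by list, beside the 7.21% of all genes above the floor that passed 1.5-fold in either direction. The translation initiation helicase Eif4a1 and the exon junction core Eif4a3, DEAD box proteins under other names, differed by 0.01 and 0.05. Other RNA helicases of superfamily 2 had a median of 0.03 over 6 genes, none past 1.5-fold. In superfamily 1, 1 of 6 genes was past 1.5-fold, Mov10, an antiviral helicase of RNA granules, at 78.3 and 50.1 units and a difference of -0.64. Of 21 helicase cofactors, 11 read higher and 10 lower, and 1 was past 1.5-fold. That gene was Pdcd4, which inhibits eIF4A, at 1292 and 767 units and a difference of -0.75. The 12 exon junction and export partners lay between -0.21 and 0.23.

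**Figure D4:**
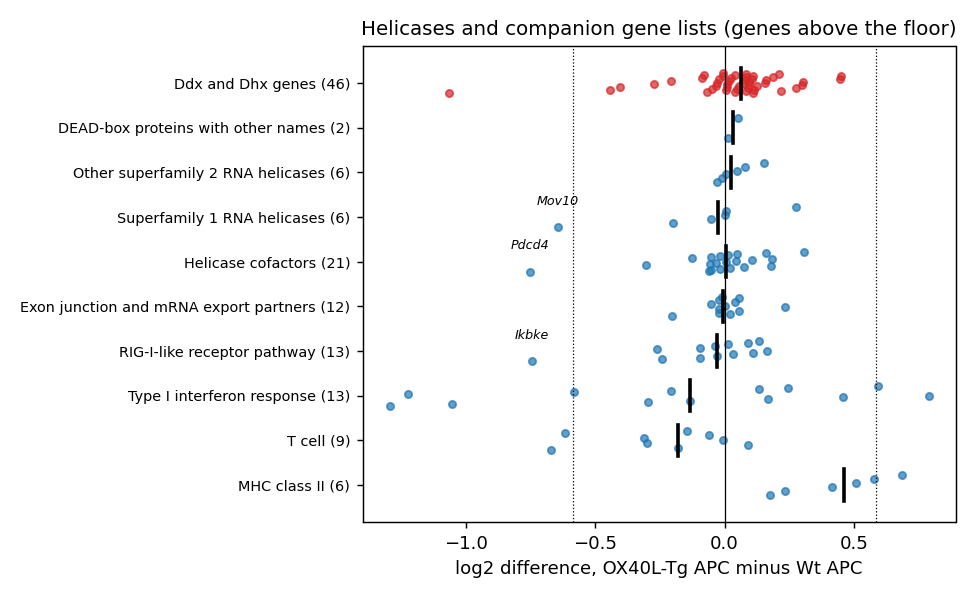
Log2 difference, OX40L-Tg APC minus Wt APC (horizontal), for the 46 helicases (red) and for companion and marker lists (blue, rows, with the number of genes above the floor); black bars are medians and dotted lines 1.5-fold. Mov10, Pdcd4 and Ikbke, all lower with OX40L-Tg APC, are the only genes of the 6 companion lists past 1.5-fold. Of all genes above the floor, 7.21% are past it in either direction, and so few genes show no direction of the lists.

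The cell type labels were set against marker genes. All 9 T cell markers with a value were above background, and 8 read lower with OX40L-Tg APC, with a median of -0.18. Cd3e (-0.67) and Cd3g (-0.62) were at least 1.5-fold lower, 2 of 9 markers (22.2%). Of all genes above the floor, 7.21% passed 1.5-fold in either direction. Cd4 read 1409.9 and 1143 units, a difference of -0.30. The CD8 gene Cd8b1 read 191 and 239 units, a difference of 0.32, and Cd8a, below background, differed by 0.17. MHC class II genes, typical of APC, had a median of 0.46 over 6 genes, all higher, and H2-DMb1 (0.69) was the 1 past 1.5-fold. The summed intensity of all 7 listed genes, with Ciita below the floor, was 2699.6 and 3605 units. The brightest of them, Cd74, gave 901 and 1346 units of that sum. Of 7 B cell markers, 4 were above background. Cd79b, at 166 and 313 units, differed by 0.92, Cd22 by 0.44, Ms4a1 by 0.25 and Cd79a by 0.23. Blk, below background, differed by -0.15, and Pax5 and Fcrla were below the floor. Of 4 dendritic cell markers above the floor, 3 read higher and 1 lower. Only Ccl17 of that list was above background on at least 1 array, at 55.1 and 149.6 units, a difference of 1.44. The 2 macrophage markers above the floor, both below background, had a median of 0.46. The erythroid gene Hba-a1 read 1161 and 207 units. Alas2, Slc4a1 and Rhd, of the same list, were below background and differed by -0.31, -0.09 and 0.20. Adipocyte genes were checked because the extraction protocol names adipose tissue, and Adipoq, Fabp4 and Lep were below the floor on both arrays. In a bulk sample, fewer cells of a type and less RNA per cell cannot be told apart. The part of these other cells in the helicase values was not tested.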

How the data were processed

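The authors deposited probe set intensities on a linear scale from Affymetrix HT_MG-430 PM arrays, made with RMA per the submitters' processing notes. Its version, and which arrays were normalized together, are not given in the sources used here. RMA equalises arrays, so a change in total RNA per cell leaves no trace, and it compresses low intensities. The number of arrays, 1 per group, limits the precision. Of 45141 probe sets, the platform annotation pairs 28898 with 1 gene symbol, 551 with several and 15692 with none listed. The symbols of all 48 members matched the RefSeq gene table (GRCm38.p6) through their Entrez numbers. Log2 was taken, and a gene needed to reach the array median on at least 1 array.

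There is no test, so 1.5-fold is a size, not a significance threshold. Every member is named, and both values are given for members at 1.5-fold or more, the 6 highest and 6 lowest differences, the RNA sensors and the 2 largest differences of each role. Values of other members are given where a paralog or a second probe set bears on them. Members, role groups, companion lists and thresholds were chosen with earlier results of these data known. The promoter motifs were chosen after seeing the data. Aqr, Ifih1 and Irf7 stand on 2 lists. Genes of the panel for background included Csn2, Krt10 and Mylpf, whose signal lay above the level it set. Alternatives were the mean of a gene's probe sets, leaving out shared probe sets, no floor, a floor at the 75th percentile, lowess centring (span 0.3), log2(intensity + 16) and a 2-fold threshold. Sets marked as prone to cross-hybridise were left out with the shared ones. The steps were tested on simulated data. Python 3.11.15, numpy 2.4.6, pandas 2.3.3, statsmodels 0.14.6 and matplotlib 3.10.9 were used.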

Additional observations from a re-analysis of the deposited data

Results flagged for a closer look

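Probe sets paired with several gene symbols were kept out of the comparisons, and 3 of them that name a helicase read above background. The set shared by Ddx49, a ribosome assembly helicase, and Homer3 read 434 and 468 units, a difference of 0.11, and no other set represents Ddx49 here. Of the sets shared by Ddx39b and H2-Q6, one read 2346 and 2467 units, a difference of 0.073, and another 49.6 and 53.4 units, a difference of 0.11. None of these was past 1.5-fold.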

How the results depend on the processing

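No helicase was at least 1.5-fold higher under any of the 7 alternatives. The 2-fold threshold and the floor at the 75th percentile could not have added one, since they only raise the cut or remove genes. Adding 16 to each intensity shrinks the difference of a probe set, so it too could hardly add one. The 1 lower helicase, Ddx43, dropped out with a floor at the 75th percentile, leaving 0 of 39 genes. The median of the family stayed between 0.04 (lowess centring) and 0.07 (no floor), and the share of higher members between 60.9% (lowess centring) and 74.4% (floor at the 75th percentile). The median and share over all genes were not computed under the alternatives. Whether the family leaned upward relative to all genes there was thus not tested. For the 23 named helicases, 68 of 126 alternative values equal the reported one since floors do not alter a difference and a choice of probe sets alters only genes with another set or a shared one, so these show no stability. Of the 58 that differ, 8 did so by more than 0.13, the within-gene SD of all genes. Dhx58 moved from -0.44 to -0.07 when its 2 dim probe sets were averaged in, and Ddx27 from 0.28 to 0.10. With 16 added to each intensity, Ddx43 stood at -0.60 and Dhx37 at 0.29. Without shared probe sets Ddx3x stood at -0.02 and Ddx19b at 0.02, both in sets above background. Ddx17 then stood at 0.27, in a set below background (18.8 and 22.7 units). The means of all sets were 0.10 for Ddx17, 0.08 for Ddx19b and -0.0027 for Dhx30. Each of these means takes in sets below background, for Dhx30 one of 24.1 and 22.9 units. The sign of Ddx3x and Ddx19b thus depends on the probe set among sets above background. For Ddx17 and Dhx30 the sign changes only with a set below background. No paired analysis was possible because each group has 1 array.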
